A study of Homo sapiens with 9 samples.

Results

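The 12674 distal regions described here were listed as open chromatin in control Ewing sarcoma cells and in neither of the cell populations in which CHD4 was knocked down. They were chosen from the region lists themselves. The lists of shCHD4#1, shCHD4#2 and shScramble cells were merged wherever regions of chromosomes 1 to 22 and X shared at least 1 bp, after dropping those whose second score was negative or whose width exceeded 20 kb. A merged region was a member when it held a shScramble region, held no region of either hairpin, and lay clear of every protein-coding gene's ends, with a margin of 1 kb to each side of an end. Of 130417 merged regions, 72263 held a shScramble region, and 57423 of those were distal. The members were 22.1% of these 57423 distal control regions (95% Wilson interval 21.7 to 22.4), so that share is the background against which the counts below are read. Among them 6187 overlapped a protein-coding gene (intragenic, 21.9% of 28239) and 6487 did not (intergenic, 22.2% of 29184). Because absence from both hairpin lists chose the members, these shares describe the choice and were not tested. Here "lost" means absent from a list, and no list reports a measured decrease.

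The cells were SK-N-MC, an established Ewing sarcoma cell line, and chromatin accessibility was assayed by ATAC-seq, in which a transposase inserts sequencing adapters into open DNA. All 3 groups carried a doxycycline-inducible short hairpin RNA and were grown with 100 ng/ml doxycycline for 48 h: shCHD4#1 and shCHD4#2 with the genotype label CHD4 knockdown, and shScramble with the label wildtype. Each group had 3 biological replicates, 9 samples in all, and each sample mixed 100000 SK-N-MC cells with 100 Drosophila S2 cells as a spike-in. The labels do not say whether a hairpin line was derived from 1 clone, and no measure of the knockdown was used here. The files used here hold 1 region list per group, filed under replicate 1, and no read counts. The depth behind a region and the spread between replicates are therefore unknown, intervals cover counting error only, and absence from a list cannot be told apart from a region that fell short of the caller's threshold.

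CHD4 is the ATPase of the NuRD complex, which couples nucleosome remodelling to histone deacetylation and acts at promoters and enhancers. Distal open regions include enhancers, where transcription factors displace nucleosomes far from gene starts. In Ewing sarcoma the fusion EWSR1::FLI1, an ETS-family factor that recognises the core GGAA and opens chromatin at GGAA repeats, shapes many of them.

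After the filters the lists held 122456 regions with shCHD4#1, 82824 with shCHD4#2 and 85359 with shScramble, covering 199, 103 and 141 Mb. Their median widths were 1390, 1040 and 1440 bp in the same order. At the ends of 40 genes activated by EWSR1::FLI1, regions covered 33 genes with shCHD4#1, 32 with shCHD4#2 and 34 with shScramble, among them NR0B1 and NKX2-2 in all 3 lists. Blood cell markers did not serve as a contrast, since 19, 16 and 16 of 28 such genes had a covered end in the same order, so the label could be checked against its own markers only.

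The genome under the members could not be read, but annotated starts of transcripts lie inside some of them, away from the outer ends of protein-coding genes. RefSeq (GRCh38.p14) gives 300 bases around each such start, 250 before and 50 after it. Of 34961 windows in that table, 112 lay wholly inside a member. The windows of the 3 best-ranked members that held one are printed below on the strand of the gene, 5′ to 3′, to show what sequence was listed in shScramble cells and missing from both hairpin lists. Capitals mark GGAA and its reverse complement TTCC, the ETS core.
ZFP1: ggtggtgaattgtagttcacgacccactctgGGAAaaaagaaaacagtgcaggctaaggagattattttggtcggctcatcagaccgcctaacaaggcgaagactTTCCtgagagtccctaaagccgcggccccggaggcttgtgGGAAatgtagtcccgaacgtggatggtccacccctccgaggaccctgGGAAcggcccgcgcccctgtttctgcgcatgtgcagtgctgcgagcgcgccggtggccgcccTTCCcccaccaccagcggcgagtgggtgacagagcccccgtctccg
LINC01585: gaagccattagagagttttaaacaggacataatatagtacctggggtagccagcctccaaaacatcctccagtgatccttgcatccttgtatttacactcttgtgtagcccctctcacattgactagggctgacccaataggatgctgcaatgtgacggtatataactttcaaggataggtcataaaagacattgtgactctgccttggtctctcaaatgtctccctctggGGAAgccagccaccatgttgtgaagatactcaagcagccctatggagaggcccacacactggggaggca
SLC36A1: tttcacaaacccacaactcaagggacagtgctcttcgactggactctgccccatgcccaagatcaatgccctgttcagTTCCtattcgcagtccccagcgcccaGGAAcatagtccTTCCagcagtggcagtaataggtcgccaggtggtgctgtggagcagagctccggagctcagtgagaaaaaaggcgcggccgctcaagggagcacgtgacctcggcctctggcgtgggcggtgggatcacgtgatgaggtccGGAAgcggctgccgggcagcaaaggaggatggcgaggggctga
The first is an internal start of ZFP1, a zinc finger gene, at chr16:75148274-75148573 on the plus strand, inside the member chr16:75147551-75148860. That member had a score of 868 in the shScramble list and lay 8030 bp from the nearest shCHD4#1 region and 8200 bp from the nearest shCHD4#2 region. Its window had 61.7% G+C, 23 CpG and 5 copies of the core. The second is the start of the long non-coding RNA gene LINC01585 at chr15:90659984-90660283 on the plus strand, in the intergenic member chr15:90659441-90660980. Its score was 609, the nearest regions were 3850 bp away with shCHD4#1 and 140 bp away with shCHD4#2, and its window had 47.7% G+C, 1 CpG and 1 core. The third is an internal start of SLC36A1, a proton-coupled amino acid transporter, at chr5:151447353-151447652 on the plus strand, in the member chr5:151447091-151447740. Its score was 477, and a shCHD4#1 region lay 30 bp from its edge and a shCHD4#2 region 870 bp from it. These sequences therefore differ in how completely the neighbourhood was missing: the area around the ZFP1 start had no listed hairpin region for about 8 kb, and the SLC36A1 member ended next to one.

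Over the 112 windows inside members the median G+C content was 48.0%, against 56.0% for the 1800 windows inside distal regions of all 3 lists and 58.7% over all 34961 windows. At least 10 CpG were present in 25% of the member windows (95% Wilson interval 17.9 to 33.8), in 46.8% of those in distal regions of all 3 lists (44.5 to 49.1) and in 56.5% of all windows. The member windows were thus poorer in CpG than those of distal regions that were kept. These sets were not matched for rank or for kind of start. Of 97 intragenic members at a start, 56 overlapped a protein-coding one, against 971 of 1254 intragenic regions of all 3 lists. Each motif was searched on both strands. GGGCGG, a GC box, occurred in 20.5% of the member windows, 37.9% of those in distal regions of all 3 lists and 45.03% of all windows. GGAAGGAA, a pair of adjacent ETS cores, each of which is also counted as GGAA, occurred in 1 of 112 member windows (0.893%, 0.158 to 4.88), 4.11% of those in all 3 lists and 3.67% of all windows. TGACTCA, the AP-1 site, occurred in 6.25%, 7.28% and 4.92% in the same order, and CACGTG, the E-box, in 4.46%, 7.72% and 7.27%. The intervals in member windows were 3.06 to 12.3% for the AP-1 site and 1.92 to 10.03% for the E-box, so for these motifs and for GGAAGGAA the 112 windows could not be separated from the other sets.

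Regions at annotated starts were seldom lost. Overlap with starts and with non-coding genes was read on merged regions, which span hairpin regions as well where a region was kept. Kept regions could thus overlap a start or gene more easily, and how far this changed the shares was not tested. Of 1578 intragenic distal control regions that overlapped a start window, 97 were lost with both hairpins, 6.15% (5.07 to 7.44), against 22.8% of the 26661 that overlapped none. Of 1001 intergenic ones at a start, 73 were lost, 7.29% (5.84 to 9.07), against 22.8% of 28183. Regions at starts also stood higher in the shScramble list. If each had been lost at the share of its own decile of that list over all distal control regions, 259 intragenic and 168 intergenic losses would be counted, so the observed numbers were 0.375 and 0.436 times those. Bodies of long non-coding RNA genes were overlapped by 23.7% of the intergenic members (22.7 to 24.7) and by 28.4% of the intergenic regions of all 3 lists (27.7 to 29.1). SOX2-OT, the transcript that surrounds SOX2, had 6 of its 13 intergenic control regions lost, and it was picked after its values were seen.

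miRNA genes were overlapped by few members. They numbered 18 genes in 16 members, out of 155 distal control regions that overlap a miRNA gene, a share of 10.3% (6.45 to 16.1), and mature sequences of 15 of the 18 were in the RefSeq table (GRCh38.p14). The best-ranked of these members held MIR155, whose product acts in immune cells and in several cancers, and another held MIR197, which was picked after its values were seen, as were the other miRNA genes named here. The mature sequences of MIR155 and the 3p sequence of MIR197, which also has a 5p one, are printed with the seed, bases 2 to 8, in capitals.
hsa-miR-155-5p: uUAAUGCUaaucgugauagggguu
hsa-miR-155-3p: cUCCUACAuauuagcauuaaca
hsa-miR-197-3p: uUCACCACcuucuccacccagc
No seed was shared between any of the mature miRNAs matched. The MIR155 member, chr21:25573321-25574760, had a score of 217 and lay 12230 bp from the nearest shCHD4#1 region and 12630 bp from the nearest shCHD4#2 region. The MIR197 member, chr1:109597881-109599110, had a score of 24 and lay 19420 bp and 1790 bp from regions of the same hairpins. MIR550A2 and MIR550B2, encoded on opposite strands of the same stretch, shared 1 intergenic member on chromosome 7.

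Most members were weak regions of the shScramble list by the authors' p-value. Rank is a region's place in that list ordered by the authors' p-value, as a percent of the list from its best end. The median rank was 69.5% for intragenic members and 70.1% for intergenic ones, against 31.0% and 30.6% for distal regions in all 3 lists. The median score, which runs up to 1000 in these lists, was 47 and 46 for members and 232 and 236 for regions in all 3 lists. This score fell as the p-value rose, and regions of equal p had equal scores, so it is not a measure separate from rank. The shScramble regions were also narrower, with medians of 1380 and 1370 bp for members against 1590 and 1580 bp. A merged region took the best rank, p and score, and the greatest width, among its shScramble regions. The 12674 members held 12674 such regions, but the 31085 distal regions in all 3 lists held 37357. Choosing among several thus favoured kept regions in rank, score and width, and how far this changed the contrasts was not tested. Narrow regions are favoured by the rule itself, since they have fewer bases that can meet a hairpin region. An authors' p of at most 0.05 was carried by 20 intragenic and 18 intergenic members, against 3236 of 28239 intragenic and 3374 of 29184 intergenic distal control regions. No member had a q of at most 0.05. In all, 81.5% of the intragenic and 81.2% of the intergenic members lay beyond the middle of the list.

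**Figure D1:**
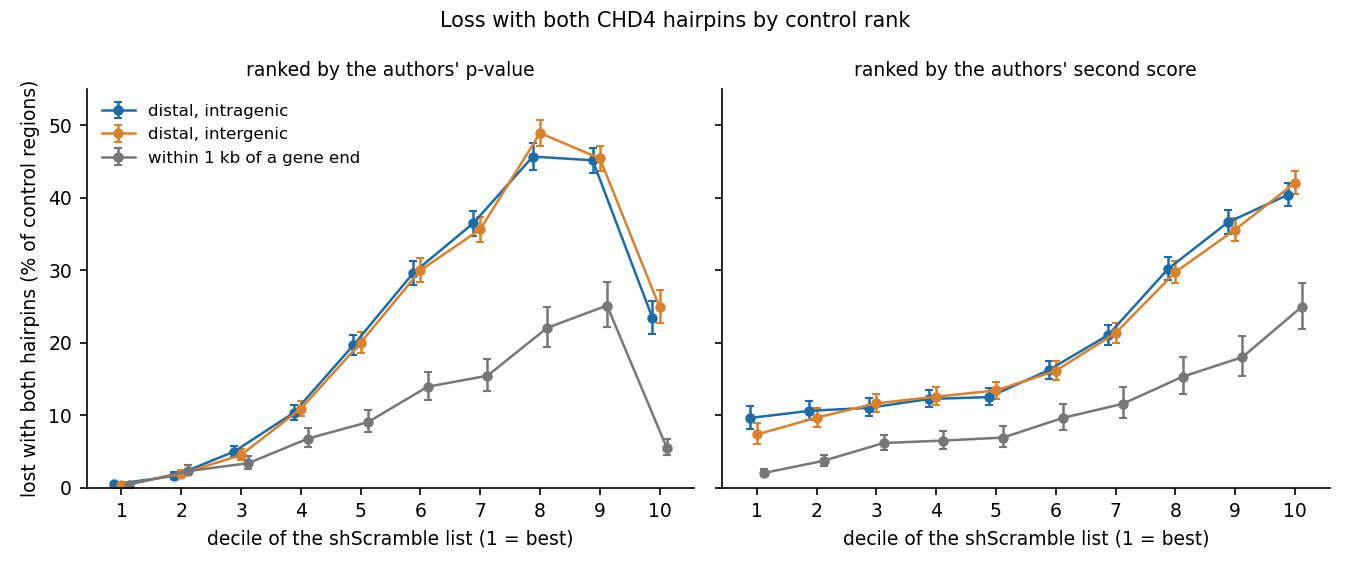
Share of shScramble regions lost with both hairpins (y axis, percent) by decile of the shScramble list (x axis, 1 is the best), ranked by the authors' p-value on the left and by their second score on the right. Points are shares with 95% Wilson intervals; blue and orange are intragenic and intergenic distal regions and grey is regions within 1 kb of a gene end, which lie lower from the fourth decile on (left).

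Loss climbed down the list in both classes of distal region, with each merged region placed by its best rank. In the best decile 0.493% of intragenic and 0.356% of intergenic control regions were lost, in the fifth decile 19.7 and 20.01%, and in the eighth 45.7 and 48.9%. The last decile turned back to 23.4 and 24.9%. It holds regions that share 1 authors' p-value, 0.950693, which 7421 shScramble regions carry. Their median second score was 726, against 244 over the list, and of the 1886 distal ones 268 were lost (14.2%). Ranked by the second score in place of the p-value, a choice made after seeing the data, loss did not turn back, and it reached 40.4% of intragenic and 42.1% of intergenic regions in the last decile. In the best decile by that score, 9.62% of intragenic and 7.36% of intergenic regions were lost. The near absence of loss at the top of the list thus held for the p-value ranking only.

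Distal regions were lost more often than regions at gene ends of like rank, beyond the top of the list. Classes were given to merged regions, which span hairpin regions as well where a region was kept. Kept regions could thus reach a gene-end window more easily, and how far this changed the shares was not tested. Over the whole list, the 22.1% of distal control regions stand against 1099 of 14840 within 1 kb of a gene end (7.41%). In the first decile the distal shares were within counting error of the 0.433% at gene ends. In the eighth decile the intervals of the intragenic and intergenic shares were 43.8 to 47.5% and 47.1 to 50.7%, against 22.1% (19.4 to 25) at gene ends. The same order held within widths: in the seventh and the eighth decile, distal regions of at most 1500 bp were lost in 45.3% of cases and gene-end regions in 20.7%, and above 2500 bp the shares were 29.1 and 12.5%. Within a class, wider regions were lost less often, with 30.3% of intergenic regions of 500 to 1000 bp lost and 14.9% of those of 3000 to 5000 bp. A wider region has more bases that can meet a hairpin region, so the rule itself favours this order. Widths here are of shScramble regions only, the widest where a merged region held several.

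Each hairpin was also read alone against the same shScramble list. Of the distal control regions, 27% were absent with shCHD4#1 and 40.9% with shCHD4#2, the shorter list. Intragenic regions were absent in 27.1 and 40.6% of cases and intergenic ones in 27 and 41.1%, in the same order of hairpins. A further 5292 intragenic and 5518 intergenic regions were absent with shCHD4#2 only, and 1466 and 1388 with shCHD4#1 only. Their median ranks lay between those of members and of regions in all 3 lists: 60.6 and 58.9% for regions absent with shCHD4#2 only, and 46.4 and 47.4% for those absent with shCHD4#1 only. Both comparisons use the same control list, so their overlap is not independent evidence.

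Members often lay close to a hairpin region. The nearest region of either hairpin was a median of 1960 bp from an intragenic member (quartiles 340 and 10710) and 2370 bp from an intergenic one (350 and 12090). At the edge of the rule, 1315 members (10.4%) had a hairpin region less than 100 bp away, and 249 of them touched one without a shared base. Just on the other side, 353 distal control regions were kept by an overlap of less than 100 bp. Farther out, 578 members (4.56%) lay at least 50000 bp from any hairpin region and 159 at least 100000 bp. At the other edge of the rule, 563 members had an edge 1 to 2 kb from a gene end, and the median distance to an end was 26609 bp for intragenic and 44183 bp for intergenic members.

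Some members were pieces of longer open stretches. Of the members, 1967 (15.5%) touched another shScramble region with no base between them, against 12.6% of the distal regions in all 3 lists and 14.9% of the whole shScramble list. Every region that did so had the same second score as a region it touched. Among these members, 986 touched a further member, and 981 touched only regions that were kept or lay at a gene end, so that part of a continuous stretch was a member and the adjoining piece was not. Joining all touching regions first, an alternative added after seeing the data, left 10986 lost distal regions, 20.1% of 54754.

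The best-ranked members show how strong a lost region could be. Of the intragenic ones, that in KDM2B, a histone demethylase gene, at chr12:121442911-121443600 came first with an authors' p of 0.00539 and a score of 941, and shCHD4#1 and shCHD4#2 regions lay 510 and 690 bp away. The ZFP1 member came second. Those in PLEKHB1, SUFU, an inhibitor of Hedgehog signalling, and PSPC1, a paraspeckle protein gene, followed with scores of 863, 848 and 827. The SUFU member lay 290 and 190 bp from shCHD4#1 and shCHD4#2 regions, and the PSPC1 member 100 and 80 bp from them. Of the intergenic ones, chr7:142338321-142339790, nearest to PRSS58 at 80262 bp, came first with a score of 934 and had hairpin regions 2500 and 2900 bp away. The next, near DCAF12, touched a shCHD4#2 region. Those nearest to IKZF1, a lymphoid transcription factor, PICK1 and VPREB1 had scores of 831, 828 and 799 and lay 60, 140 and 150 bp from a shCHD4#2 region. Of these 10 members, 9 lay at most 2500 bp from a hairpin region, and the ZFP1 member was the exception.

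The member nearest to VPREB1 overlapped IGLV1-47, a variable segment of the immunoglobulin light chain locus. Gene segments of antigen receptors are not annotated as protein-coding genes, so regions over them count as intergenic unless a protein-coding gene also lies there. Of 78 distal control regions over such segments, 10 were lost (12.8%, 7.12 to 22.02).

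At the other extreme, the intragenic member farthest from any hairpin region lay in DMD, the dystrophin gene, at chrX:32246431-32247700, 755 kb from a shCHD4#1 and 1209 kb from a shCHD4#2 region. Its score was 22. It and the next were picked for their distance. The farthest intergenic one, chr15:19987471-19988320, was 2777 kb from a shCHD4#1 region and had a score of 170.

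Within genes, 3867 of the 8600 protein-coding genes with an intragenic distal control region had at least 1 lost, and 2550 had exactly 1. Of these genes, 77.5% had a region within 1 kb of an end with shCHD4#1, 73.5% with shCHD4#2 and 68.5% with shScramble. For genes with distal control regions and none lost the shares were 77.7, 71.9 and 67.7%. Ends were therefore covered about as often in genes that held members as in those that did not. Loss differed little along the gene, at 22.6% of control regions in the first of 5 equal parts from the start and 23.03% in the last (21.4 to 23.9 and 21.8 to 24.3). The lowest share was 21.0% in the second part (19.8 to 22.2). These parts were read for 22748 control regions in genes with a known strand. By length of the host gene the share was 20.4% for genes of 20 to 50 kb and 23.6% for those over 1000 kb (19.1 to 21.7 and 21.1 to 26.4).

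**Figure D2:**
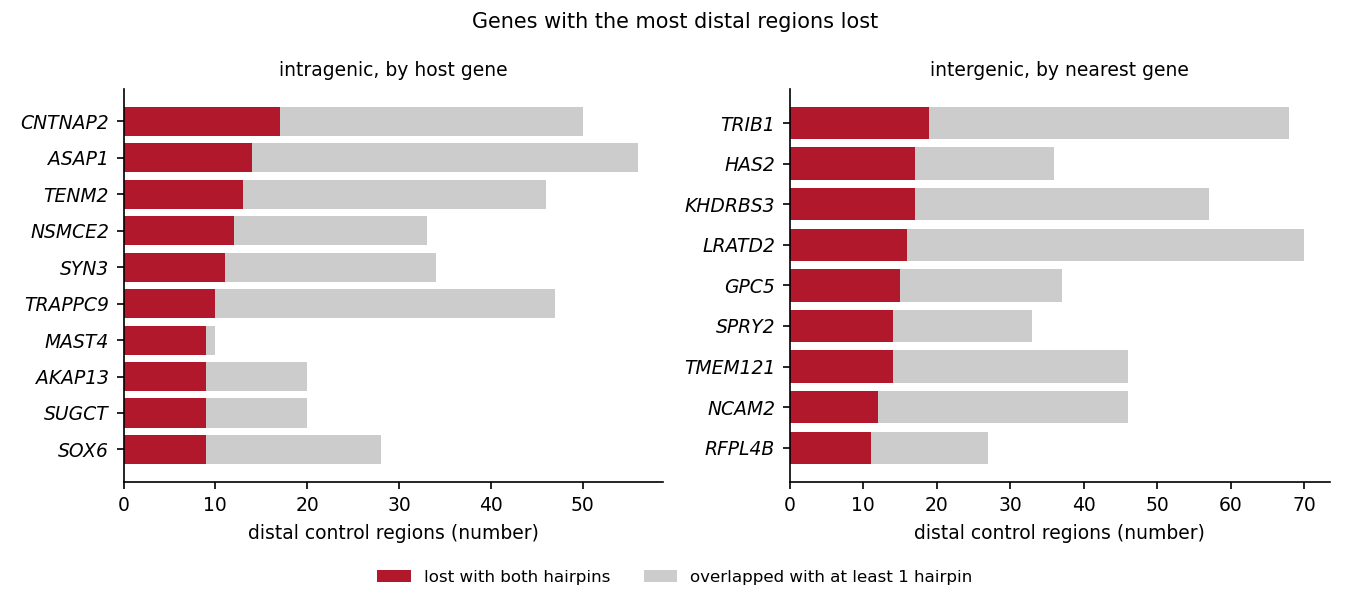
Distal control regions (x axis, number) in 10 host genes on the left and nearest to 9 genes on the right, split into those lost with both hairpins (red) and those overlapped with at least 1 hairpin (grey). Genes are ordered by the number lost; MAST4 lost 9 of 10, whereas CNTNAP2 lost 17 of 50.

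CNTNAP2, a neurexin-family adhesion protein of axons, held the most members. It lost 17 of 50 distal control regions, 34.0% (22.4 to 47.8), across chr7:146116801-148420998. Its distal regions numbered 56 with shCHD4#1, 29 with shCHD4#2 and 50 with shScramble, and 3 merged regions were listed with both hairpins and not with shScramble. The gene was therefore not emptied: its losses lay among regions that were kept and others that were new. ASAP1, which encodes a GTPase-activating protein for Arf, lost 14 of 56, and TENM2, a teneurin that binds latrophilins at synapses, 13 of 46. NSMCE2, whose product attaches SUMO to proteins in DNA repair, lost 12 of 33, and its distal regions numbered 28 with shCHD4#1, 13 with shCHD4#2 and 33 with shScramble. SYN3, a synapsin of synaptic vesicles, lost 11 of 34 and TRAPPC9, a vesicle tethering factor, 10 of 47. The intervals of NSMCE2 (22.2 to 53.4%) and CNTNAP2 lie above the 21.9% background by less than 1 point, and those of ASAP1, TENM2, SYN3 and TRAPPC9 include it.

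MAST4, a serine/threonine kinase gene at chr5:66596393-67169593, had the highest share among the 10 genes with the most members. It lost 9 of 10 distal control regions (90.0%, 59.6 to 98.2), and had 5 distal regions with shCHD4#1, 3 with shCHD4#2 and 10 with shScramble. At least 1 of its ends was covered in all 3 lists, but not by a shared region. The shScramble region there, 0.118 to 1.248 kb from the start of MAST4, was itself lost with both hairpins. Hairpin regions lay between -1.352 and 0.038 kb from that start. The scores of the 9 lost regions ran up to 56, for chr5:66814131-66815320, which lay 62760 and 63280 bp from shCHD4#1 and shCHD4#2 regions. They include 2 pairs that touched, such as chr5:66959461-66961380 and chr5:66961381-66963010. AKAP13, an anchoring protein for protein kinase A, and SUGCT, a metabolic transferase, each lost 9 of 20, with intervals of 25.8 to 65.8%. SOX6, a developmental transcription factor, lost 9 of 28 (17.9 to 50.7%). CAMTA1 tied with these genes at 9 members and had the lowest share of them, at 9 of 53 (9.20 to 29.2%).

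Of 833 genes with at least 8 such regions, 40 lost 50% of them or more. After MAST4 came EML6, KCNIP4, LHFPL3 and SKAP2 with 6 of 8 each, ATAD2 and SCAPER with 8 of 11 each and SV2B with 8 of 12. SV2B, a synaptic vesicle protein gene, had 9 distal regions with shCHD4#1, 5 with shCHD4#2 and 12 with shScramble. Of 3505 genes with at least 3, 27 lost all, including DENND5A with 5 of 5 and C2CD5 and SYT14 with 4 of 4. C2CD5 had no distal region left in either hairpin list, while at least 1 of its ends was covered in all 3. Genes in this paragraph other than MAST4 were picked for their shares after these were seen.

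**Figure D3:**
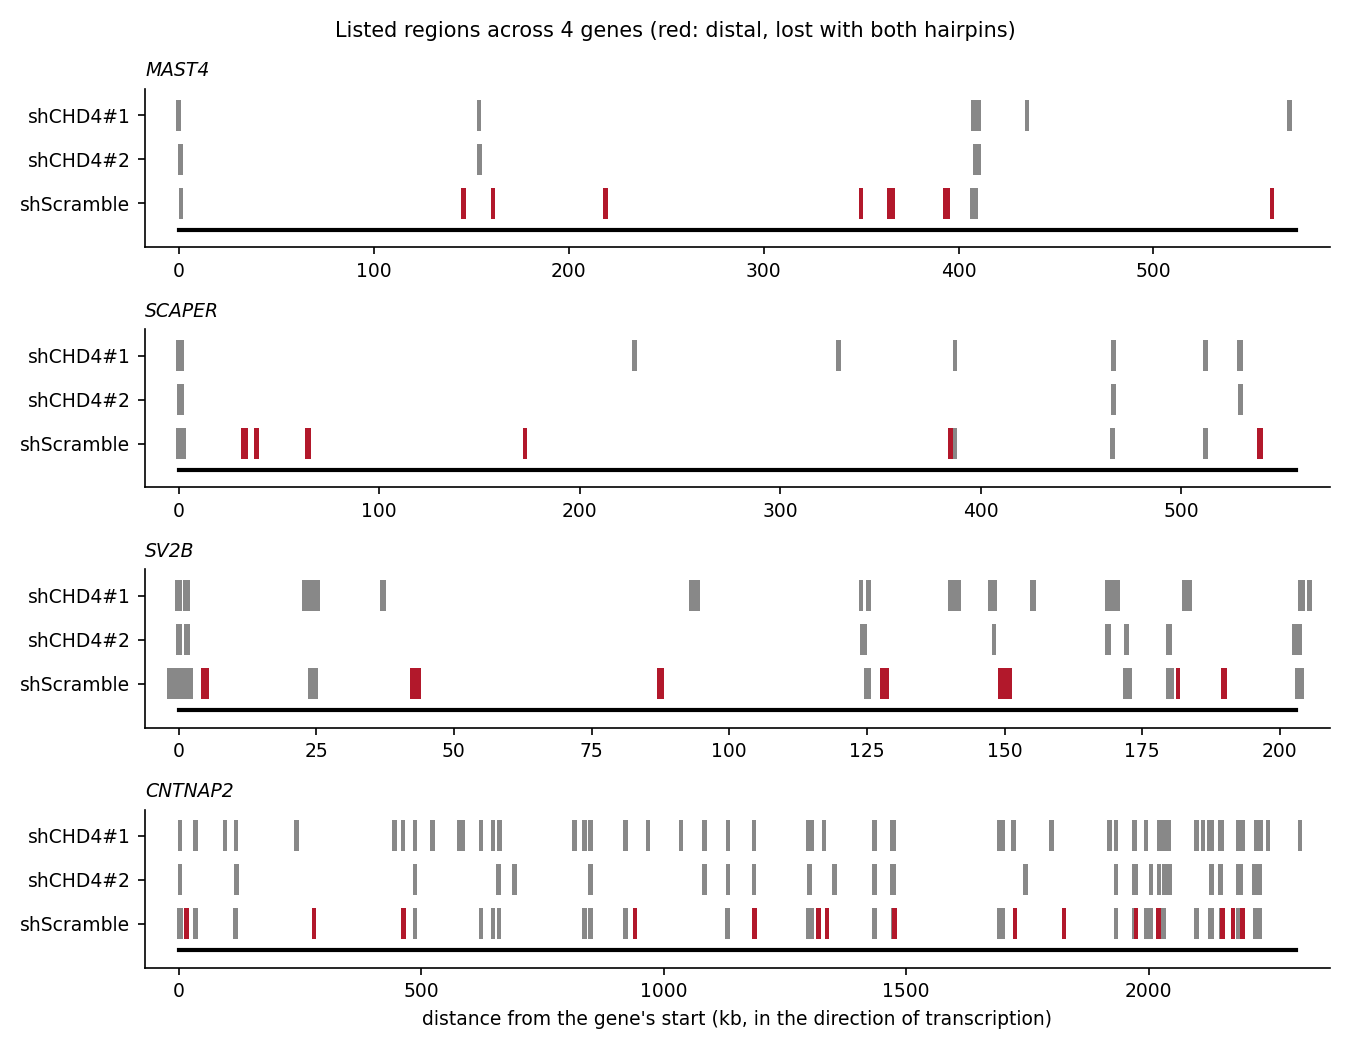
Regions listed with shCHD4#1, shCHD4#2 and shScramble (rows) along 4 genes, as distance from the gene's start in the direction of transcription (x axis, kb; black bar, gene). Red marks distal shScramble regions lost with both hairpins, grey all others; narrow regions are drawn wider than they are. MAST4 has 9 red regions of which some touch, SCAPER and SV2B 8 each and CNTNAP2 17.

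Intergenic members were assigned to the protein-coding gene nearest to them. TRIB1, a pseudokinase gene at chr8:125430358-125438403, was nearest to 19 lost of 68 intergenic control regions, HAS2, a hyaluronan synthase, to 17 of 36, KHDRBS3, an RNA-binding protein, to 17 of 57, and LRATD2 to 16 of 70. In the same order the shares were 27.9, 47.2, 29.8 and 22.9%, against 22.2% over all intergenic control regions. Nearest genes were ordered by number lost, which favours genes near many control regions, and no intervals were computed for them. All 4 lie on the long arm of chromosome 8, as do ASAP1, NSMCE2 and TRAPPC9. From 120 to 140 Mb of that chromosome 313 of 1205 distal control regions were lost (26.0%, 23.6 to 28.5), and the ranks of these regions gave 307 losses, so the observed number was 1.02 times that. HAS2 had 40 nearest regions with shCHD4#1, 26 with shCHD4#2 and 36 with shScramble, and its members lay a median of 321695 bp away.

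Other genes with many members border wide intervals without protein-coding genes. GPC5, a glypican gene, was nearest to 15 lost of 37 and SPRY2, an inhibitor of receptor tyrosine kinase signalling, to 14 of 33, both on chromosome 13. TMEM121 had 14 of 46 on chromosome 14, NCAM2, a neural adhesion molecule, 12 of 46 on chromosome 21 and RFPL4B 11 of 27 on chromosome 6. From GPC5 to RFPL4B, in the order named, the shares were 40.5, 42.4, 30.4, 26.1 and 40.7%. Members nearest to TMEM121 include some over variable segments of the immunoglobulin heavy chain locus. Such segments are not annotated as protein-coding, so that interval is not empty of genes. Members nearest to SPRY2 lay a median of 774829 bp from it. Over all intergenic control regions, 25.7% of those more than 200 kb from a protein-coding gene were lost (24.5 to 26.9) against 21.5% of those nearer (20.96 to 22). Regions far from genes also stood lower in the shScramble list, with a median rank of 51.3% against 46.1%, and their 1341 losses were 1.07 times the 1253 that their ranks gave.

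**Figure D4:**
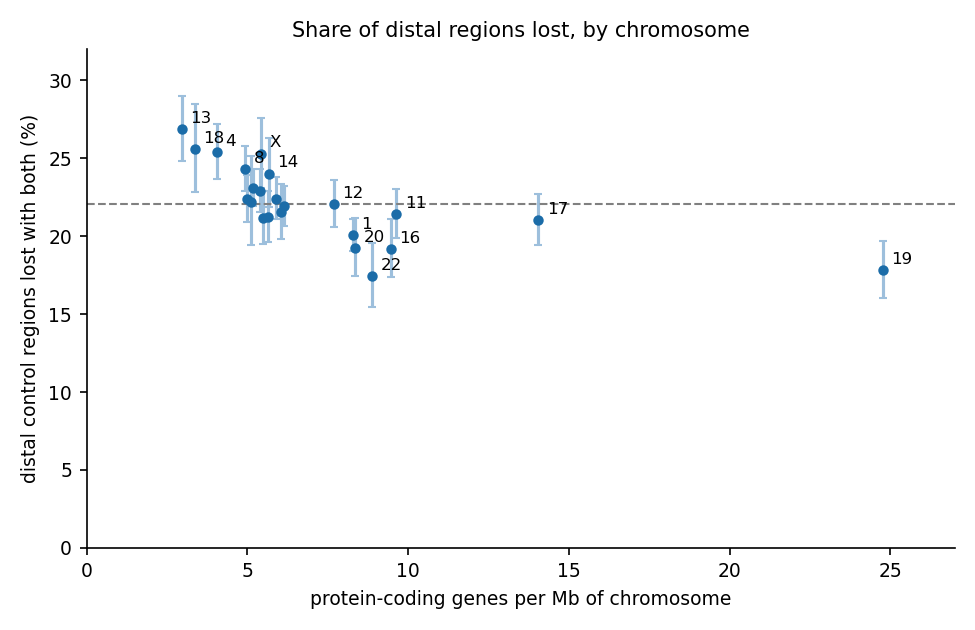
Share of distal control regions lost with both hairpins (y axis, percent, with 95% Wilson intervals) against protein-coding genes per Mb (x axis) for 23 chromosomes; the dashed line is the share over all of them. Chromosome 13 stands highest and chromosomes 22 and 19 lowest.

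Chromosomes differed in the same direction. Chromosome 13 lost 468 of 1741 distal control regions (26.9%, 24.9 to 29.0), chromosome 18 25.6%, chromosome 4 25.4% and chromosome X 25.3%. Chromosome 19 lost 17.8% and chromosome 22 232 of 1332 (17.4%, 15.5 to 19.5). Across the 23 chromosomes the share lost ran against the density of protein-coding genes, with a Spearman coefficient of -0.85 and Pearson's r of -0.67, and r was -0.83 without chromosomes 17 and 19, the 2 with most genes per Mb. It also ran with the median rank of the control regions (Spearman coefficient 0.79). These are descriptions over chromosomes that share 3 lists and their depth, and have no p. Set against the losses that rank gives, the shares spread less, with ratios of 0.854 on chromosome 22 to 1.16 on chromosome 13. These ratios still ran against the density of protein-coding genes, with a Spearman coefficient of -0.59.

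In stretches of 10 Mb with at least 50 distal control regions, 293 in number, the share lost had a median of 22.7%. The highest was 37 of 93 on chromosome 13 from 80 to 90 Mb (39.8%, 30.4 to 49.9), 1.47 times the number that rank gives, in a stretch with 6 protein-coding genes. The lowest was 40 of 343 on chromosome 9 from 130 to 140 Mb (11.7%, 8.68 to 15.5), 0.519 times, with 154 genes. In 35 stretches the interval lay wholly above the 22.1% background and in 29 wholly below it.

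Along the genome 7278 members (57.4%) had no member as the next distal control region on either side, and the others lay in runs. The neighbours include regions absent with 1 hairpin. The longest runs of consecutive lost ones counted 8 regions and were 3 in number. One, chr13:55653361-56789560, overlapped no protein-coding gene and held 6 regions with shCHD4#1, 0 with shCHD4#2 and 8 with shScramble. Another, chr15:76520531-76972480, lay across SCAPER and RCN2, with 6, 4 and 11 regions in the same order. The third, chr5:66741281-66991860, lay within MAST4 and held 1, 1 and 8. Pieces that touch were counted as separate regions, and the SCAPER and MAST4 runs include such pairs. A run of 7 at chr3:104596171-104726910 was the longest with no region of either hairpin between its ends. All 4 were made of weak regions, with a best authors' p of 0.572, 0.586, 0.730 and 0.514.

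**Figure D5:**
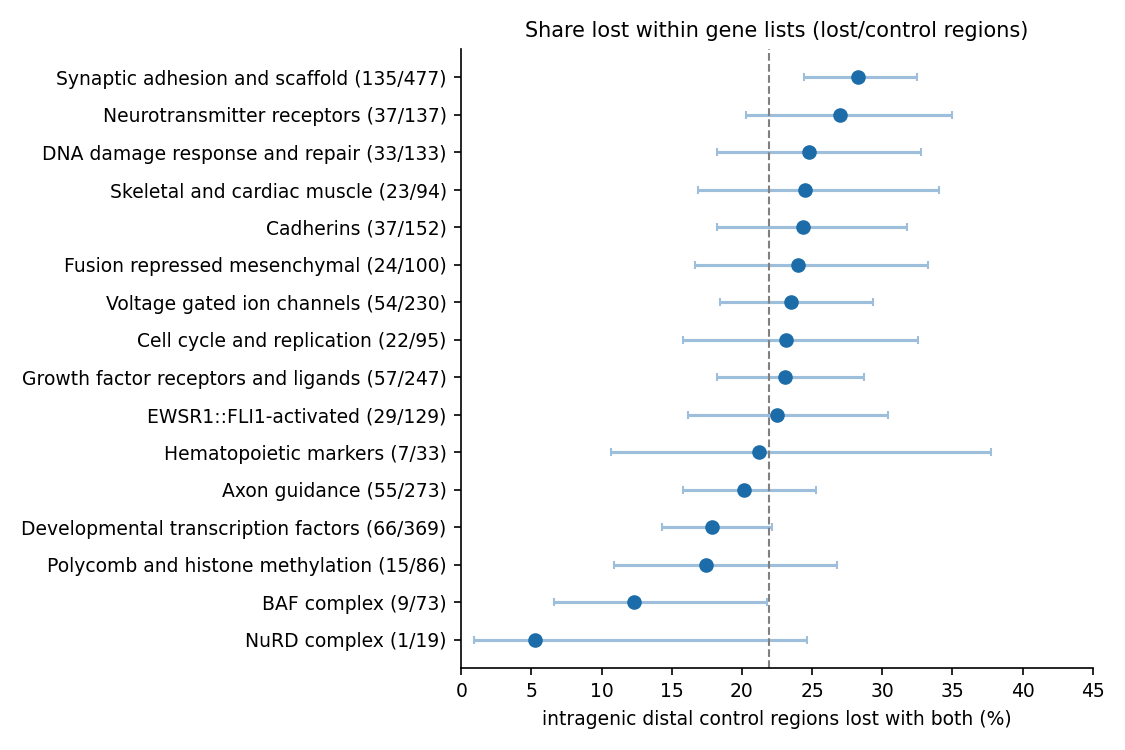
Share of intragenic distal control regions lost with both hairpins (x axis, percent, with 95% Wilson intervals) for 16 gene lists (rows, with lost and control regions in brackets); the dashed line is the share over all intragenic distal control regions, 21.9%. As deposited, genes of synaptic adhesion lie highest and the NuRD and BAF complexes lowest, an order that changes with lists cut to equal length.

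Among 16 lists of genes, those of synaptic adhesion and scaffolds had the highest share as deposited, an order that did not hold with lists cut to equal length. They lost 135 of 477 intragenic distal control regions, 28.3% (24.4 to 32.5), in 30 of the 36 genes that had any, against 21.9% over all genes. Their ranks gave 117 losses, and the observed number was 1.15 times that. The members were led by CNTNAP2, SYN3 and SV2B. Neurotransmitter receptors lost 37 of 137 (27.01%, 20.3 to 34.99), led by GRM8 with 4 of 19, GABRB1 with 3 of 4 and GRIK1 with 3 of 5. Cadherins lost 37 of 152, led by CDH12 and CDH4 with 5 each, and voltage-gated channels and their partners 54 of 230, led by KCNIP4 and KCNQ3 with 6 each, both near the background. Axon guidance genes lost 55 of 273, led by SEMA3A with 5 of 17.

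Genes of the sarcoma programme were close to the background for intragenic regions, the only ones read by gene list. Of the 40 targets activated by EWSR1::FLI1, 22 held such a control region. Targets activated by EWSR1::FLI1 lost 29 of 129 (22.5%, 16.1 to 30.4), led by SOX6, JAK1, a cytokine receptor kinase, with 5 of 17, and LIPI with 3 of 4. Mesenchymal genes that the fusion represses lost 24 of 100, led by COL5A2 with 5 of 16. Growth factor receptors and ligands lost 57 of 247, led by ERBB4 with 6 of 17 and ALK with 6 of 19. DNA damage response and repair genes lost 33 of 133, of which 12 lay in NSMCE2. Cell cycle and replication genes lost 22 of 95, led by ATAD2 with 8 of 11, and muscle genes 23 of 94, led by RYR2 with 7 of 15. Blood cell markers lost 7 of 33.

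Chromatin regulators had the lowest shares as deposited, on small counts. Genes of NuRD, CHD4's own complex, lost 1 of 19 (5.26%, 0.935 to 24.6). BAF complex genes lost 9 of 73 (12.3%, 6.62 to 21.8), led by BCL7C with 3 of 6, and Polycomb and histone methylation genes 15 of 86, led by KDM4C and KDM2B with 4 each. Developmental transcription factors lost 66 of 369 (17.9%, 14.3 to 22.1), led by SOX6 and by RORA with 6 of 25. Ranks gave 14.1 losses for BAF genes, 79.1 for developmental factors and 15.1 for the Polycomb list, whose observed number was 0.995 times that. With lists cut to equal length the share over all intragenic distal control regions was 29.9%. Neurotransmitter receptors then had 37.3%, the synaptic list 37.0%, cadherins 36.5%, blood cell markers 36.4% and DNA damage genes 36.0%. BAF genes had 28.9% and the Polycomb list 28.4%, above EWSR1::FLI1 targets with 27.5%, fusion-repressed genes with 27.1% and developmental factors with 22.6%, and NuRD genes had 4 of 21 lost.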

How the data were processed

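Chromatin accessibility was measured by ATAC-seq in 9 SK-N-MC samples, and 1 region list per group was used. The tools named in the submitters' processing notes are deepTools 3.2.1, SAMtools 1.9, BWA, FastQC 0.11.7 and Trimmomatic 0.36, and the builds are dm6 and GRCh38. No source used here names the peak caller or says how the spike-in was used. The list names carry ChIP-R, which combines replicate peak lists, so 1 list per group was taken as combined. The authors deposited for each region a score, a second score whose unit is not stated, a p-value and a q-value. Coordinates are GRCh38, 1-based.

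Lists were filtered, merged and compared as the report gives, with Python 3.11.15, pandas 2.3.3 and numpy 2.4.6, and the overlap code was tested on simulated data. Genes (19974 protein-coding) and sequences came from RefSeq GRCh38.p14. With 1 list per group no test between groups was run. Named genes were the 10 host and the 10 nearest genes with most members, up to 3 per list with at least 2 members, and the 5 best-ranked members of each class; a gene that this rule names is not reported here. Genes outside it are said to be picked after seeing values. The members and the gene lists were chosen with earlier results of these data known. Alternatives were other overlap, gap, width, window, length and p-value settings.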

Additional observations from a re-analysis of the deposited data

How the results depend on the processing

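The 12674 lost distal regions became 20187 when a control region counted as present only with 50% of its bases covered, and 38 when only shScramble regions with an authors' p of at most 0.05 were used. All other settings kept the count within 1.5 times. The shares lost, given for all, intragenic and intergenic distal control regions, were 29.7, 29.3 and 30.1% with 50% coverage, 15.2, 14.97 and 15.4% when a hairpin region within 500 bp counted as present, 0.575, 0.618 and 0.533% at a p of at most 0.05, and 30.0, 29.9 and 30.1% with lists cut to equal length. They were 18.6, 18.1 and 19.1% over single shScramble regions without merging, and 22.5 and 22.4% for all and intragenic ones without regions wider than 5 kb. Among settings added after seeing the data, they were 22.8, 22.8 and 22.8% without annotated starts and 20.1, 19.9 and 20.3% with touching regions joined. A gene-end window of 5 kb, wide and negative regions kept, chromosome 8 from 120 to 140 Mb left out, and the most frequent p left out moved none of the 3 shares beyond its counting interval. Of 18 shares for chromosomes 13 and 22 and for the gene lists, 12 moved with equal lengths, and all 16 list shares moved at a p of at most 0.05. At that p the Polycomb and histone methylation list lost 1 of 12 control regions and no other list lost any. No list then held more than 35 control regions, so the order of the lists could not be read there. No paired analysis was possible because each group has 1 list. Depth per list is unknown, so a region missing from a list may lie below its threshold.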
